A study of Homo sapiens with 6 samples.

Results

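The mRNAs of 10 human genes of cellular iron handling are described here across 6 RNA-seq libraries of THP-1, a monocytic leukaemia cell line grown in suspension. They are the transferrin receptor TFRC, the ferritin chains FTH1 and FTL, the exporter ferroportin (SLC40A1), the metal transporters SLC11A1 and SLC11A2, the heme oxygenase HMOX1, the iron regulatory proteins ACO1 and IREB2, and the ferritin receptor NCOA4. They were chosen by name as a fixed list with earlier results of these data known, by a rule that uses no measured value, and make up 10 of the 34893 genes with a symbol. Cells had been bought from the cell banks ATCC and DSMZ, and 3 libraries were made from each. Both kinds of cells were expanded side by side in RPMI with 20% fetal bovine serum, grown for 48 h, split and grown for another 24 h at 37 °C and 5% CO2. All 6 cultures were untreated and no genetic change is named in the labels. The replicate expansions were independent per the labels. Bank and purchased vial cannot be told apart as the source of a difference, and in these bulk libraries fewer cells with a transcript and less of it per cell cannot be told apart either.

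Iron bound to transferrin enters cells through the transferrin receptor, is reduced and leaves the endosome through divalent metal transporters, and is then used, stored in ferritin shells built of heavy and light chains, or exported by ferroportin. NCOA4 carries ferritin to lysosomes, where its iron is set free. Heme oxygenase opens the heme ring and releases its iron, a step for which macrophages that clear red cells are known. The iron regulatory proteins bind a hairpin in messenger RNA, the iron-responsive element, when iron is low. A hairpin in the 5′ untranslated region then blocks translation, and hairpins in the 3′ untranslated region of TFRC keep its mRNA from being degraded. RNA-seq reads mRNA levels, so control at translation is not seen in these data.

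Because the iron regulatory proteins act through these hairpins, matches to them were looked for in the untranslated regions of GENCODE 29 transcripts (GRCh38). The search was for the loop CAGTGN above 5 paired bases (G-T pairs allowed), an unpaired C on the 5′ side and 5 lower positions of which at least 3 pair. Only the sense strand of each transcript was read. This strict form was found in 23 of 16685 genes searched (0.138%). Allowing 1 more unpaired base on the 3′ side of the stem raised this to 78 genes (0.467%). Both counts rest on 1 coding transcript of each gene, the one with the highest mean TPM (transcript abundance scaled for length and depth). For the 10 iron genes every transcript on the primary assembly was read, and 6 genes held a match. This wider search is not on the same footing as the counts over all genes. The 5′ matches lay in the genes for both ferritin chains and ferroportin. The 3 sequences are shown 5′ to 3′ in transcript sense with the loop in capitals, at chr11:61967575-61967601 (minus strand), chr19:48965336-48965362 (plus strand) and chr2:189580662-189580688 (minus strand), in that order.
FTH1: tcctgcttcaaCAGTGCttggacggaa
FTL: tcttgcttcaaCAGTGTttggacggaa
SLC40A1: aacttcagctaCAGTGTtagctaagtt

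The 3′ untranslated region of TFRC held 4 strict matches, all on the minus strand of chromosome 3. They lay 939, 1343, 1408 and 1455 bases past the end of the coding sequence of TFRC-202, at chr3:196050980-196051006, chr3:196050576-196050602, chr3:196050511-196050537 and chr3:196050464-196050490. They are shown in that order, since their repetition sets TFRC apart from the single matches of the other genes.
TFRC site 1: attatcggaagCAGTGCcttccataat
TFRC site 2: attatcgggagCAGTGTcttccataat
TFRC site 3: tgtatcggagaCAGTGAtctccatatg
TFRC site 4: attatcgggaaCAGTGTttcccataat

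SLC11A2 and IREB2 matched in the 3′ untranslated region only when 1 more unpaired base was allowed. The SLC11A2 match is at chr12:50988269-50988296 (minus strand), 32 bases past the coding sequence of SLC11A2-202, and the IREB2 match at chr15:78500970-78500997 (plus strand), 2830 bases past that of IREB2-201.
SLC11A2: gccatcagagcCAGTGTgtttctatggt
IREB2: atttgctttcaCAGTGAtgagtgagagg

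A match is a description of letters and of their possible pairing, not a measured binding site. In SLC11A1, HMOX1, ACO1 and NCOA4 these letters were not found in the untranslated regions searched.

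**Figure D1:**
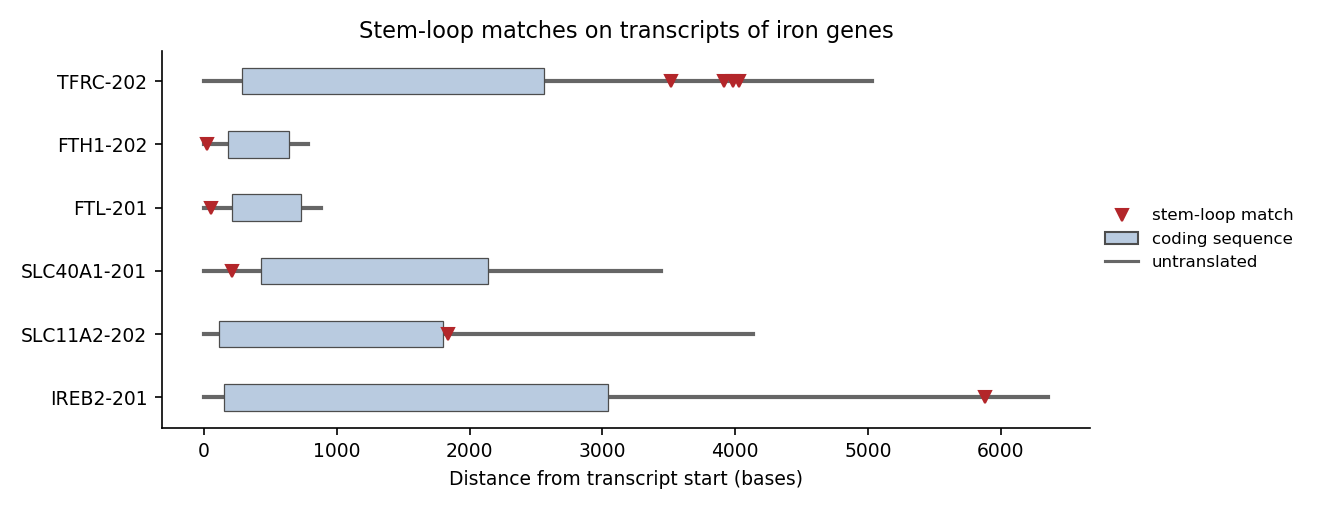
Stem-loop matches on 1 transcript of each of the 6 matching genes, with the distance from the transcript start in bases on the horizontal axis. Boxes are coding sequence, lines are untranslated sequence and triangles are matches: FTH1, FTL and SLC40A1 carry theirs before the coding sequence, TFRC (4), SLC11A2 and IREB2 after it.

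The libraries held between 23413428 and 37119721 estimated counts. ATCC replicate 2 deviated from the other libraries of its group along base composition. Its median log2 deviation within the group was -0.93 in the GC decile of genes lowest in GC and 0.35 in the highest. In ATCC replicate 1 these values were 0.62 and -0.24. The DSMZ libraries stayed within -0.05 and 0.06. Every iron gene is therefore also given without ATCC replicate 2. All 9 monocytic markers (among them LYZ, SPI1 and CSF1R) were detected in every library, with a summed level of 599 to 921 CPM (counts scaled to library size) in ATCC and 584 to 753 in DSMZ. The single markers went both ways, with more of them lower in DSMZ. Mean CPM in ATCC and DSMZ was 62.3 and 24.3 for CD33, 55.0 and 24.0 for FCER1G, and 1.34 and 0.329 for CD14. The means of SPI1, FCGR1A and ITGAM were also lower in DSMZ. Higher in DSMZ were the means of CSF1R (80.3 and 118), CYBB (7.03 and 20.2) and LYZ (299 and 337). For CSF1R, LYZ and ITGAM the libraries of the sources overlapped. The part of these markers in the results below was not tested. Erythroid markers, relevant because red cell precursors carry much TFRC, summed to at most 0.246 CPM, with HBG1, HBG2 and ALAS2 at 0. T cell markers summed to at most 0.391 CPM, B cell markers to 5.24 to 6.77 in ATCC and 8.78 to 9.46 in DSMZ with MS4A1 at 0, epithelial markers to at most 4.78 and fibroblast markers to at most 5.31.

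Of the 10 iron genes, 8 differed between the sources past an adjusted p of 0.05 (edgeR quasi-likelihood test with Benjamini-Hochberg adjustment over 14569 genes). TFRC, FTH1, SLC40A1, SLC11A2 and NCOA4 were higher in DSMZ, and FTL, SLC11A1 and ACO1 were higher in ATCC. HMOX1 and IREB2 did not pass. In the same test 49.8% of all genes were called, 24.1% as higher in DSMZ and 25.7% as higher in ATCC, so a call by itself is common in this comparison. At a size of at least 2-fold, 3 iron genes were called (SLC40A1, NCOA4 and SLC11A1), beside 21.3% of all genes. For 9 of the 10, all but HMOX1, the ranges of the sources were separate in CPM, as for 61.7% of all genes, and also in TPM, as for 57.2% of all genes. The median absolute log2 fold change was 0.95 over the 10 genes and 0.47 over all genes tested, and the signed medians were 0.49 and 0.01. Fold changes are DSMZ over ATCC on the log2 scale throughout, with their standard error (SE).

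**Figure D2:**
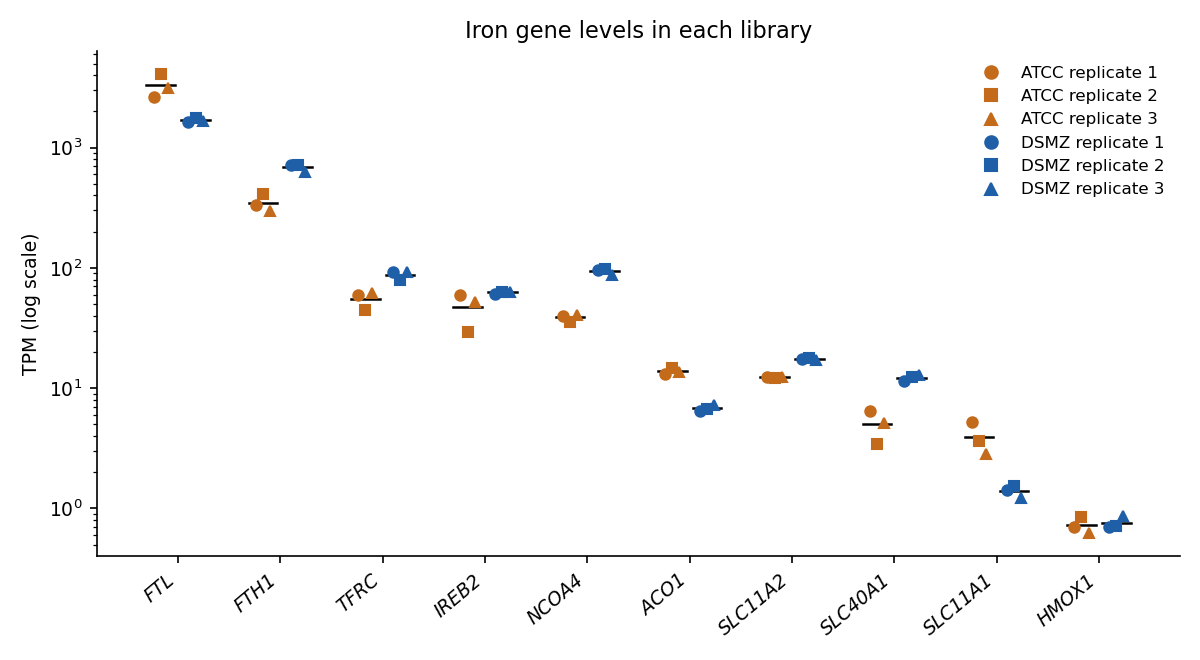
TPM (transcript abundance scaled for length and depth) of the 10 iron genes in each library on a log axis, with a point for each library and a bar for the mean of the 3 libraries of a source. FTL and FTH1 lie above the other 8 genes in both sources, and HMOX1 lies lowest, between 0.622 and 0.867 TPM.

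In TPM, the scale on which genes can be compared with each other, the order from high to low in ATCC was FTL, FTH1, TFRC, IREB2, NCOA4, ACO1, SLC11A2, SLC40A1, SLC11A1 and HMOX1. The ATCC libraries of TFRC and IREB2 overlapped, as did those of IREB2 and NCOA4 and those of SLC40A1 and SLC11A1. In DSMZ the order was FTL, FTH1, NCOA4, TFRC, IREB2, SLC11A2, SLC40A1, ACO1, SLC11A1 and HMOX1, and among neighbours only NCOA4 and TFRC overlapped. NCOA4 thus stood below TFRC in every ATCC library and at its level in DSMZ, and ACO1 moved from above both SLC11A2 and SLC40A1 to below them.

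The uptake genes TFRC and SLC11A2 were both higher in DSMZ. TFRC, the receptor that takes up transferrin (chromosome 3, 196027183 to 196082189, minus strand), stood at 59.0, 44.9 and 61.4 TPM in ATCC replicates 1, 2 and 3 and at 91.6, 80.0 and 92.3 TPM in DSMZ. The lowest DSMZ library lay above the highest ATCC library, and ATCC replicate 2 was the lowest of all. The log2 fold change was 0.83 (SE 0.14, edgeR adjusted p = 0.00227), or 1.78-fold, and 0.71 without ATCC replicate 2. The TPM means, 55.1 ± 8.89 and 88.0 ± 6.93 (SD, n = 3), differ by 1.60-fold. Short retained-intron transcripts held 17.8 to 35.0% of TFRC's TPM, while its coding transcripts held 97.3 to 98.6% of its counts.

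SLC11A2 (DMT1) moves ferrous iron out of endosomes and lies on chromosome 12 (50979401 to 51028566, minus strand). Its TPM was 12.4, 12.1 and 12.4 in ATCC and 17.5, 17.9 and 17.1 in DSMZ. The replicates of each source lay close together (SD 0.176 and 0.439, n = 3) and far from those of the other. The difference, a log2 fold change of 0.51 (SE 0.096, edgeR adjusted p = 0.00341), was the smallest of the 8 called and was 0.54 without ATCC replicate 2. CYBRD1 and STEAP3, reductases that prepare iron for such transport, went opposite ways, as given with the pathway lists.

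SLC11A1 (NRAMP1), the metal transporter of the phagosome membrane (chromosome 2, 218382029 to 218396894, plus strand), was low and went the other way. It stood at 5.21, 3.63 and 2.85 TPM in ATCC and at 1.43, 1.53 and 1.22 in DSMZ, without overlap, from 56 to 150 counts in a library. The log2 fold change was -1.10 (SE 0.19, edgeR adjusted p = 0.00202), and the gene stayed called without ATCC replicate 2 (adjusted p = 0.00142 in edgeR). Only 1 of its 18 listed transcripts is protein-coding, and that one held 20.9 to 50.4% of the gene's counts. On coding transcripts alone the log2 fold change was -0.72 with an adjusted p of 0.177 in edgeR, so the call was lost there, and adjusted p over all alternatives ranged from 8.13e-05 to 0.177.

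The ferritin chains moved in opposite directions. FTH1, the heavy chain that oxidises iron on entry (chromosome 11, 61959718 to 61967660, minus strand), stood at 330, 415 and 295 TPM in ATCC and at 719, 711 and 624 TPM in DSMZ. Every DSMZ library was above every ATCC library. Its log2 fold change was 0.98 (SE 0.14, edgeR adjusted p = 0.00087), or 1.97-fold, and 1.15 without ATCC replicate 2.

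FTL, the light chain that helps the mineral core form (chromosome 19, 48965301 to 48966878, plus strand), stood at 2656, 4113 and 3121 TPM in ATCC and at 1641, 1766 and 1673 TPM in DSMZ. It was the most abundant of the 10 genes in all 6 libraries. ATCC replicate 2 was the highest of them, and no library of one source reached the range of the other. In log2 terms FTL changed by -0.94 (SE 0.17, edgeR adjusted p = 0.00316), or 1.92-fold lower in DSMZ, and -0.71 without ATCC replicate 2.

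The FTH1 to FTL ratio of TPM was 0.124, 0.101 and 0.0946 in ATCC and 0.438, 0.403 and 0.373 in DSMZ. Heavy chain mRNA was thus lower than light chain mRNA in every library, and closer to it in each DSMZ library. The means were 0.107 ± 0.0157 and 0.405 ± 0.0327 (SD, n = 3), a difference of 1.93 on the log2 scale or 3.81-fold. An exact two-sided permutation test gave p = 0.1, the smallest that the 20 assignments of 3 against 3 libraries allow, and 0.15 after Benjamini-Hochberg adjustment over the 3 ratios tested. Leaving out any 1 library kept the log2 difference between 1.85 and 2.05.

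Ferritin genes have many processed pseudogenes whose reads can be confused with theirs. The 25 FTH1 pseudogenes listed summed to 0.444 to 2.04% of FTH1's TPM and the 16 of FTL to 0.0219 to 0.0776% of FTL's. FTH1P2 was the most abundant of the first, at 0.424 to 3.99 TPM, and FTLP3 of the second, at 0 to 0.642 TPM. With the pseudogene counts added to their parent the log2 fold changes were 0.97 for FTH1 and -0.94 for FTL. How the reads were split between a gene and its copies cannot be checked from the deposited values.

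**Figure D3:**
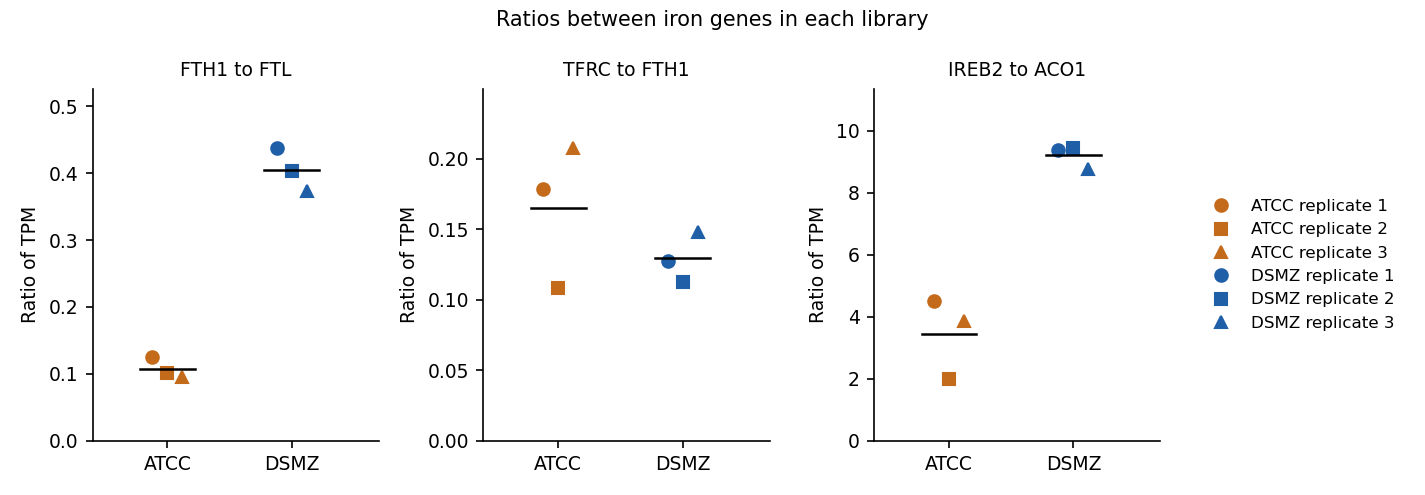
Ratios of TPM between pairs of iron genes in each library, with circles, squares and triangles for replicates 1, 2 and 3 and a bar for the mean of each source. The FTH1 to FTL and IREB2 to ACO1 ratios of the DSMZ libraries lie above all ATCC libraries, while TFRC to FTH1 overlaps through ATCC replicate 2.

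NCOA4, which delivers ferritin to the lysosome (chromosome 10, 46005088 to 46030714, minus strand), stood at 40.1, 35.7 and 40.8 TPM in ATCC and at 96.4, 97.5 and 87.1 TPM in DSMZ. The sources were far apart beside a spread of 2.75 (SD, n = 3) in ATCC and 5.75 in DSMZ. NCOA4's log2 fold change was 1.30 (SE 0.086, edgeR adjusted p = 3.62e-05), or 2.46-fold, and 1.27 without ATCC replicate 2. It had the smallest adjusted p of the 10 genes.

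SLC40A1, the only known iron exporter of mammalian cells (chromosome 2, 189560579 to 189583758, minus strand), stood at 6.51, 3.44 and 5.08 TPM in ATCC and at 11.4, 12.3 and 13.0 TPM in DSMZ. The sources did not overlap, and ATCC replicate 2 was the lowest. On the log2 scale the change was 1.34 (SE 0.20, edgeR adjusted p = 0.00122), or 2.54-fold, the largest fold of the 10 in this fit. Without ATCC replicate 2 it was 1.16, below the 1.27 of NCOA4. By TPM means SLC11A1, higher in ATCC, had the larger fold, 2.80 against 2.43.

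The TFRC to FTH1 ratio, which sets an uptake gene against a storage gene, did not separate the sources over all 6 libraries. It was 0.178, 0.108 and 0.208 in ATCC and 0.127, 0.112 and 0.148 in DSMZ, with all 3 DSMZ values inside the ATCC range. The log2 difference was -0.31 (exact two-sided permutation p = 0.4, also after adjustment). It was -0.58 without ATCC replicate 2 and -0.11 without ATCC replicate 3, so its size rests on single ATCC libraries. The overlap came from ATCC replicate 2. Without that library both ATCC values (0.178 and 0.208) lay above all DSMZ values (exact two-sided permutation p = 0.1).

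HMOX1, the inducible heme oxygenase (chromosome 22, 35380361 to 35394214, plus strand), was near the limit of what these libraries can measure. It stood at 0.700, 0.843 and 0.622 TPM in ATCC and at 0.700, 0.710 and 0.867 TPM in DSMZ, from 12 to 31 counts in a library. The fitted log2 difference was 0.13 (SE 0.35, edgeR adjusted p = 0.775). It was 0.55 without ATCC replicate 2 (adjusted p = 0.170 in edgeR) and -0.19 without ATCC replicate 3, and adjusted p over all alternatives ranged from 0.170 to 0.942. At this depth no difference in HMOX1 was detected, and the SE leaves room for one of either sign. HMOX2, the constitutive heme oxygenase, was higher in ATCC, with a mean of 24.7 ± 3.48 CPM in that source and 13.0 ± 0.818 in the other (SD, n = 3), a log2 fold change of -0.88 (SE 0.13, edgeR adjusted p = 0.000945).

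Of the iron regulatory proteins, ACO1 was lower in DSMZ and IREB2 was not called. ACO1, which is a cytosolic aconitase while it holds an iron-sulfur cluster and binds RNA without it (chromosome 9, 32384603 to 32454769, plus strand), stood at 13.2, 14.7 and 13.6 TPM in ATCC and at 6.49, 6.69 and 7.23 TPM in DSMZ. Replicates lay close together, and the ranges of the sources were separate. ACO1 had a log2 fold change of -0.95 (SE 0.11, edgeR adjusted p = 0.00036), or 1.93-fold lower in DSMZ, and -0.87 without ATCC replicate 2.

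IREB2, whose protein is degraded when iron is plentiful (chromosome 15, 78437431 to 78501456, plus strand), stood at 59.5, 29.3 and 52.5 TPM in ATCC and at 60.9, 63.2 and 63.3 TPM in DSMZ. ATCC replicate 2 lay far below the other ATCC libraries, and ATCC replicate 1 nearly reached the DSMZ range. The log2 fold change was 0.47 (SE 0.25, edgeR adjusted p = 0.152). It was 0.22 without ATCC replicate 2 (adjusted p = 0.0291 in edgeR) and 0.68 without ATCC replicate 1 (adjusted p = 0.0278). With a correction for GC content it was 0.36 (adjusted p = 0.013 in edgeR, over a range of 0.0125 to 0.262 in all alternatives), and IREB2 is low in GC at 41.2% against a median of 49.2% over tested genes. Leaving out either of ATCC replicates 1 and 2 thus brought IREB2 past the threshold, while its direction was the same in all 20 alternative fits.

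The IREB2 to ACO1 ratio of TPM was 4.51, 1.99 and 3.85 in ATCC and 9.38, 9.45 and 8.76 in DSMZ. All DSMZ libraries were above all ATCC libraries. The log2 difference was 1.50, or 2.82-fold (exact two-sided permutation p = 0.1, the smallest possible, adjusted 0.15), and it was 1.14 without ATCC replicate 2.

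**Figure D4:**
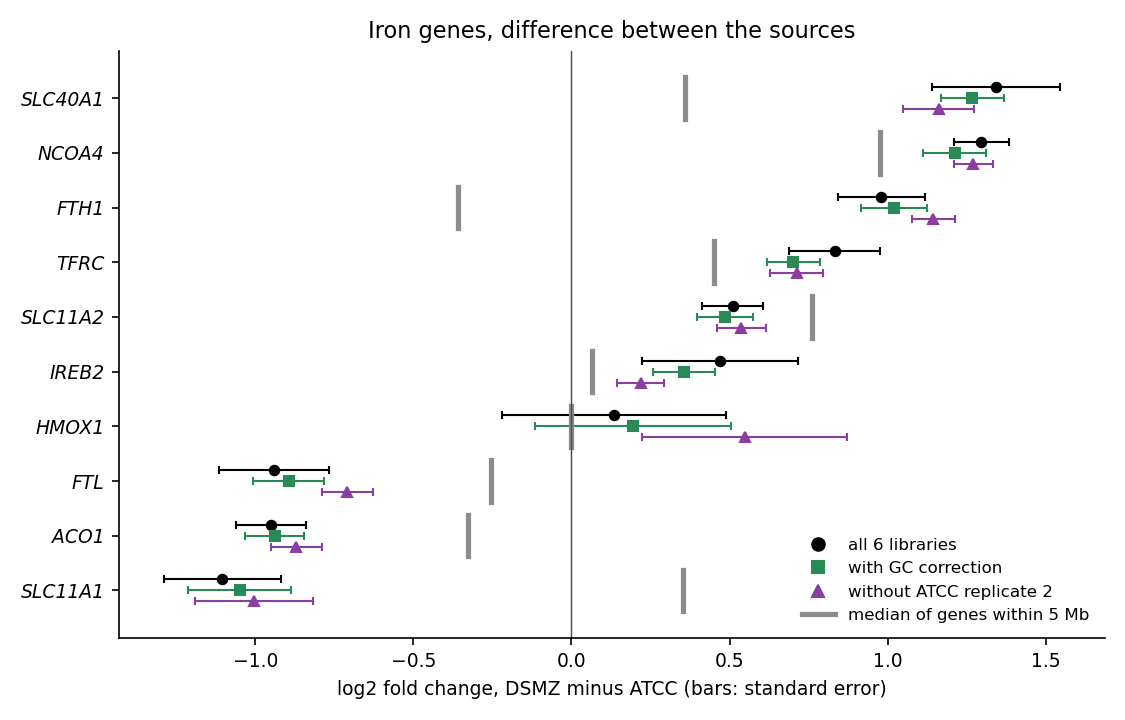
Log2 fold change of each iron gene, DSMZ over ATCC, with its standard error, from all 6 libraries (circles), with GC correction (squares) and without ATCC replicate 2 (triangles); grey bars are medians of the genes within 5 Mb. The 5 genes called higher in DSMZ and the 3 called higher in ATCC keep their side of 0 under both, and HMOX1 (0.13, 0.19 and 0.55, in that order) has the widest error.

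With GC correction 9 of the 10 genes were called, beside 63.9% of all genes, and without ATCC replicate 2 also 9, beside 64% of the 14860 genes then tested. IREB2 was the gene added in both. The corrected log2 fold changes were 0.70 for TFRC, 0.49 for SLC11A2, -1.05 for SLC11A1, 1.02 for FTH1, -0.89 for FTL, 1.21 for NCOA4, 1.27 for SLC40A1 and -0.94 for ACO1. None of these differs from the uncorrected value by more than the SE given above.

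The genes around each iron gene were compared with it, since whole regions of the genome can shift together in a cell line. Values are medians of the log2 fold change of tested genes within 5 Mb of the iron gene, without that gene, and carry no test. NCOA4 (1.30) lay among 51 genes with a median of 0.98, of which 31 were called higher in DSMZ and 6 higher in ATCC, and the median of chromosome 10 was 1.03. SLC11A2 (0.51) lay among 125 genes with a median of 0.76, of which 88 were called higher and 7 lower in DSMZ. TFRC (0.83) lay among 45 genes with a median of 0.45, and ACO1 (-0.95) among 65 genes with a median of -0.33. These 4 genes moved in the direction of their surroundings, and SLC11A2 by less than its surroundings.

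FTH1 and SLC11A1 went against their surroundings. FTH1 (0.98) lay among 212 genes with a median of -0.36, of which 17 were called higher in DSMZ and 100 higher in ATCC. SLC11A1 (-1.10) lay among 56 genes with a median of 0.35, of which 27 were called higher in DSMZ and 4 higher in ATCC. FTL and SLC40A1, in contrast, moved in the direction of their surroundings. FTL (-0.94) lay among 244 genes with a median of -0.26, and SLC40A1 (1.34) among 25 with a median of 0.36. The medians around HMOX1 and IREB2 were -0.00 and 0.06. Whether a change in gene copies took part in any of these differences was not tested.

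The 10 genes have 103 listed transcripts, of which 26 held at least 10% of their gene's TPM in a source. Of 24 with a share between 10 and 90%, 6 had shares that did not overlap between the sources, beside 18.8% of all such transcripts in the series. In NCOA4 the transcript NCOA4-204 held 72.2, 73.5 and 72.5% in ATCC and 79.7, 74.8 and 74.7% in DSMZ, and NCOA4-207 held 23.4, 20.1 and 21.3% against 14.8, 18.3 and 19.5%. Both are coding, and the same main transcript carried the gene in both sources.

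In SLC11A2 the coding transcript SLC11A2-209 held 10.7, 12.7 and 11.1% in ATCC and 4.28, 4.91 and 0.00663% in DSMZ. SLC11A2-201 held 20.4, 23.8 and 21.0% against 27.3, 25.1 and 25.7%. The transcripts that carry the hairpin match of SLC11A2 held 11.8 to 16.1% of its TPM, so most SLC11A2 mRNA in these cells was assigned to transcripts without it. The shares on matching transcripts were 62.0 to 77.5% for TFRC, 53.9 to 65.9% for FTH1, 100% for FTL, 93.4 to 97.8% for SLC40A1 and 44.3 to 52.7% for IREB2. For TFRC they equalled the TPM shares of its coding transcripts, which held 97.3 to 98.6% of its counts.

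IREB2-210 and IREB2-203 were the other pair whose shares did not overlap, the first higher and the second lower in DSMZ, with means of 17.1 against 21.3% and of 14.8 against 12.9%. Near-identical transcripts could not be told apart reliably. ACO1-203 held 42.1, 33.2 and 52.3% in ATCC but 0.0306, 0.00603 and 49.0% in DSMZ, and nearly all of the rest went to ACO1-202, which is 3601 bases long against 3618. The ACO1 difference therefore stands for the gene and not for either transcript.

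Among 34 further genes of iron uptake, export and systemic control, 22 were expressed enough to test, and 5 had no count in any library. Of the 22, 11 were called, 5 higher in DSMZ and 6 higher in ATCC (50% against 49.8% of all genes). The split was 3 and 6 with upper quartile scaling, 3 and 8 with DESeq2, and 3 and 6 without ATCC replicate 1. It was 3 and 5 without DSMZ replicate 1, and 2 and 6 without ATCC replicate 3, DSMZ replicate 2 or DSMZ replicate 3. With upper quartile scaling and without ATCC replicate 1 the share called was 40.9%, beside 48.8 and 50.2% of all genes. With DESeq2 it was 37.9% of 29 genes tested, beside 31.6%. In each other fit named it was 36.4%, beside 37.1 to 39.7% of all genes. Over the 22 genes of the main test the median log2 fold change was -0.39. CYBRD1, a ferric reductase, was higher in DSMZ at 54.9 ± 2.44 CPM against 16.4 ± 1.59 (SD, n = 3), a log2 fold change of 1.79 (SE 0.12, edgeR adjusted p = 3.51e-05). BMP2, a ligand of the BMP family that acts on hepcidin, rose by 0.76 (edgeR adjusted p = 0.00362).

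Higher in ATCC were EPAS1 (HIF-2α, an oxygen-sensitive transcription factor), SLC39A14 (ZIP14, an importer of iron not bound to transferrin) and STEAP3 (the endosomal ferric reductase). SLC39A14 stood at 220 ± 8.66 CPM in ATCC and 78.7 ± 1.96 in DSMZ, a log2 fold change of -1.44 (SE 0.08, edgeR adjusted p = 1.94e-05). EPAS1 changed by -2.24 (SE 0.14) and STEAP3 by -0.76 (SE 0.10). The iron chaperone PCBP2, the most abundant of the list, and HERC2 were called with small changes of 0.31 and 0.33 (edgeR adjusted p = 0.0228 and 0.0101), and these calls were lost (adjusted p up to 0.151 and 0.171) in 9 and 8 of 20 alternatives, among them leaving out ATCC replicate 3 or any of DSMZ replicates 1, 2 and 3.

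Of 26 genes of heme synthesis, transport and breakdown 24 were tested and 17 called, 5 higher in DSMZ and 12 higher in ATCC. The share was 70.8% against 49.8% of all genes, and the median log2 fold change was -0.45. With upper quartile scaling the split was 2 and 14, a share of 66.7% beside 48.8% of all genes. Lower in DSMZ were FLVCR1, a heme exporter also studied as a choline carrier, at 42.1 ± 5.47 CPM in ATCC and 21.0 ± 0.598 in DSMZ (log2 fold change -0.96, SE 0.13, edgeR adjusted p = 0.000694), the HMOX2 given above and the biliverdin reductase BLVRB (-0.82, edgeR adjusted p = 0.0109). Higher in DSMZ were ABCB6 (1.08), TMEM14C, which moves porphyrin precursors in mitochondria (0.56), and ALAS1, the first enzyme of heme synthesis (0.55), with edgeR adjusted p = 0.0126, 0.00618 and 0.0215. ABCB6 was low, at a mean of 0.806 CPM in ATCC and 1.65 in DSMZ, from 15 to 59 counts in a library. Its TPM overlapped between the sources, while its CPM did not. The ABCB6 call was lost without DSMZ replicate 1, with limma on TPM (0.48 to 0.61) and with the length offset (0.61), and that of ALAS1 with upper quartile scaling (0.46) and without ATCC replicate 1 or 3 or DSMZ replicate 2 or 3. SLC25A39, the mitochondrial glutathione carrier and the most abundant of the list, stood at -0.39 and did not pass (edgeR adjusted p = 0.0634), but it passed in 7 of 20 alternatives, among them the GC correction (-0.27, adjusted p = 0.018). Without DSMZ replicate 2, and likewise without DSMZ replicate 3, 10 genes of the list were called (41.7%), while the share of all genes called was 37.1 and 38.2%.

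All 33 genes of iron-sulfur cluster assembly and mitochondrial iron were tested and 17 called, 6 higher in DSMZ and 11 higher in ATCC. This share of 51.5% was close to the 49.8% of all genes, and the median log2 fold change was -0.06. The mitochondrial iron importers went opposite ways. SLC25A37 (mitoferrin-1) fell from 103 ± 8.23 to 52.8 ± 1.13 CPM (log2 fold change -0.92, SE 0.09, edgeR adjusted p = 0.000204), while SLC25A28 (mitoferrin-2) rose from 11.2 ± 0.518 to 20.3 ± 1.23 CPM (0.91, SE 0.10, edgeR adjusted p = 0.000313). MMS19, of the cytosolic assembly machinery, rose by 1.31 (SE 0.12). MMS19 and SLC25A28 lie on chromosome 10, as NCOA4 does.

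LYRM4, a partner of the cysteine desulfurase, rose by 0.79, and the cluster carrier NFU1 changed by -0.60, both past the threshold in edgeR. HSPA9, the mitochondrial chaperone and most abundant gene of the list, stood at 0.01 (edgeR adjusted p = 0.921). Leaving out DSMZ replicate 1, 2 or 3 left 11, 9 and 11 genes of the list called, and the share of all genes called also fell, to 38.8, 37.1 and 38.2%.

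The transcription factors BACH1 and NRF2 (NFE2L2) act on HMOX1, the ferritin genes and other antioxidant genes, the first as a repressor and the second as an activator. All 22 genes of that list were tested and 9 called, 4 higher in DSMZ and 5 higher in ATCC. The share was 40.9% against 49.8% of all genes, and the median log2 fold change was -0.11. BACH1 itself stood at 37.4 ± 14.8 CPM in ATCC and 84.3 ± 2.23 in DSMZ, a log2 fold change of 1.21 (SE 0.29, edgeR adjusted p = 0.00997). That call was lost with limma on TPM and with the transcript length offset (adjusted p = 0.0607 to 0.0749), and without ATCC replicate 2 the change was 0.93. NFE2L2 rose by 0.72 (edgeR adjusted p = 0.045), a call lost in 6 of 20 alternatives, among them without ATCC replicate 3 and without each DSMZ replicate, and its change was 0.47 without ATCC replicate 2.

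Target genes went both ways. PGD rose by 0.88 (edgeR adjusted p = 0.001), while ME1, TXN and TALDO1 changed by -1.84, -1.16 and -0.55 (edgeR adjusted p = 0.000139, 0.000123 and 0.00757). PRDX1, the most abundant, stood at -0.20 (edgeR adjusted p = 0.197). With GC correction 15 genes of the list were called, 8 higher in DSMZ and 7 higher in ATCC, and without ATCC replicate 2 there were 14, where the shares of all genes called were 63.9 and 64%.

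**Figure D5:**
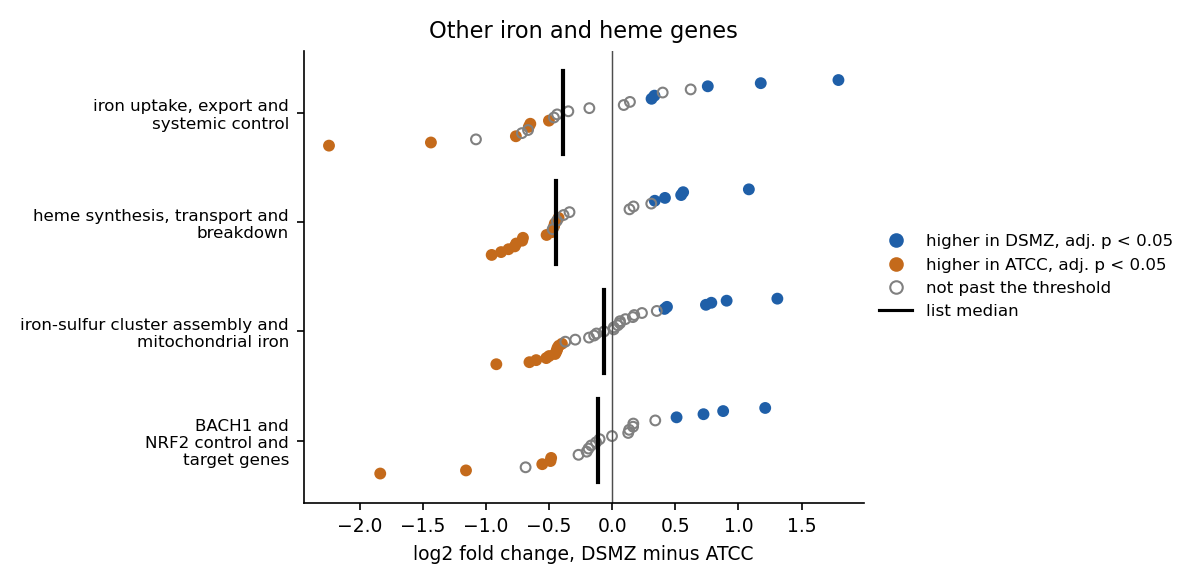
Log2 fold change, DSMZ over ATCC, of each tested gene in the 4 pathway lists, with filled points for genes past an adjusted p of 0.05 (blue higher in DSMZ, orange higher in ATCC), open points for the others and a bar for the median. Every list holds called genes on both sides of 0, and the medians of the 4 lists lie between -0.45 and -0.06.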

How the data were processed

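Poly(A) RNA was extracted with TRIzol and RNeasy columns and made into stranded libraries with a KAPA kit, per the labels' protocols. The submitters' processing notes name kallisto 0.43.0, Trimmomatic 0.35, bcl2fastq 2.20 and the build GRCh38. For the transcript annotation and the use of strand in quantification, nothing is given in the sources used here. Per the file headers, each library has a table of transcripts with lengths, kallisto's estimated count and TPM. The estimated counts that the authors deposited are unnormalized, while the deposited TPM values are scaled for length and depth.

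Of 179973 transcripts, 163714 were matched to GENCODE 29 on the primary assembly and 14222 by gene symbol (2.42 to 2.85% of counts). The 2037 without a gene (0.181 to 0.199%) were left out. Estimated counts were summed over a gene's transcripts and rounded to whole numbers. Genes were tested with edgeR 4.0.16 in R 4.3.3 (filterByExpr, TMM, quasi-likelihood F test, source as the only term, all 6 libraries, Benjamini-Hochberg threshold 0.05). The common biological coefficient of variation was 15.9%. TPM ratios were tested by exact two-sided permutation. Counts, shares and neighbourhoods carry no test. No libraries of a source agreed within sampling noise (smallest chi-square per degree of freedom 4.59). On counts simulated for 14569 genes the test recovered 19 of 67 true changes of 1.5-fold size, 64 of 67 at 2-fold and 66 of 66 at 4-fold. It made 6 false calls. The simulation gave all genes and libraries the same spread and held no deviation along GC. Only a small part of the genes was changed, none with counts as low as those of HMOX1. These rates therefore need not hold for the measured libraries.

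The 10 genes and the 4 lists were chosen with earlier results of these data known. Besides the 10 genes, the text names from each list the 3 highest and 3 lowest log2 fold changes past the threshold with a mean of at least 1 CPM, the most abundant gene by TPM, and the most abundant FTH1 and FTL pseudogenes. A gene that this rule names is not reported here. Alternatives were RLE and upper quartile scaling, DESeq2 1.42.0, limma 3.58.1 on log2(TPM + 0.5) and log2(TPM + 0.1), other filters, a transcript length offset, coding or primary-assembly transcripts only, thinning of counts to the smallest total, GC correction, a replicate block, and fits without each library in turn. Figures were drawn with matplotlib 3.10.9.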

Additional observations from a re-analysis of the deposited data

How the results depend on the processing

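Over 20 alternatives the number of genes called ranged from 5506 to 9511 (both ends from leaving out a library) and that of the iron genes from 7 to 9. Of 201 values for the 10 genes, 195 kept direction and side of the threshold. The exceptions were SLC11A1 on coding transcripts (-0.72), IREB2 with GC correction (0.36), with block and GC correction (0.37) and without 1 library (0.22 to 0.68), and HMOX1 without ATCC replicate 3 (-0.19; range without 1 library -0.19 to 0.55). HMOX1 had no value under the filter of at least 1 CPM. HSPA9 changed sign with upper quartile scaling (-0.067), limma at either pseudocount (-0.0058), primary-assembly transcripts (-0.00065), GC correction (-0.022, with the block -0.021) and single libraries left out (-0.026 to 0.045). Called genes without 1 library ranged from 10 to 19 (heme), 9 to 21 (iron-sulfur), 8 to 13 (uptake and export) and 7 to 14 (BACH1 and NRF2), where GC correction, with or without the block, gave 15. In the fits without 1 library 37.1 to 64% of all genes were called. The cause was not tested.

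Deviations from the group means correlated at 0.00936, 0.0669 and 0.147 between same-numbered libraries of the sources. Between libraries of unlike number the correlations ran from -0.101 to 0.0223. Whether same-numbered libraries share more than a number was not tested. With the replicate block 7012 genes and 8 of the 10 iron genes were called, against 7261 and 8 without pairing. Precision is limited by 3 libraries for each source and, for genes such as HMOX1, SLC11A1 and ABCB6, by their low counts. Alternatives for the list genes named in the text were added after seeing the data.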
